A study of Mus musculus with 12 samples.

Results

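The cytosolic ribosomal protein genes encode the protein components of the large and small ribosomal subunits. They were taken from the deposited gene lists by name, as every listed Rpl or Rps gene of the standard naming pattern together with Rpsa, Rplp0, Rplp1 and Rplp2, leaving out the S6 kinase genes. This gave 84 of 16145 genes listed in at least 1 of 12 libraries, 52 of the large and 32 of the small subunit, and 82 of them were listed in all 12. RNA was sequenced from mouse bone marrow-derived macrophages, obtained by 7 days of culture of marrow cells with M-CSF, a macrophage growth factor. There were 4 groups with 3 libraries in each: wild-type cells given vehicle for 12 h, cells labelled Irg1 knockout given vehicle for 12 h, wild-type cells given 120 µM 4-octyl itaconate (4-OI) for 15 h, and wild-type cells given 15 µM hemin for 12 h. The gene Irg1, now called Acod1, encodes the itaconate-producing enzyme, 4-OI is a cell-permeable ester of itaconate, and hemin is oxidised heme. The 4-OI libraries differ from all others in hours as well as in treatment, so compound and duration cannot be told apart. The labels do not say whether replicates came from separate animals or cultures, and p-values therefore measure only the spread between these libraries.

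Ribosomal proteins are made in nearly equal numbers for assembly into ribosomes, and their mRNAs are among the most abundant in dividing and in resting cells. Most of these mRNAs begin with a cytosine followed by a run of pyrimidines, the 5′ terminal oligopyrimidine (TOP) motif, through which the kinase mTORC1 and the binding protein LARP1 set their translation. A change in their translation can therefore pass unseen in RNA abundance. A few ribosomal proteins have paralogues that can take their place in the ribosome, such as Rpl22l1 for Rpl22 and, in mouse male germ cells, Rpl39l for Rpl39. In mice the Rpl22 protein is known to repress the Rpl22l1 transcript.

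RefSeq promoter sequences, build GRCm38.p6, were matched by symbol for 63 of the 84 genes. The promoters of a single chromosome were left out before matching, so a missing match is not a matter of symbols alone. The lines after this text show, 5′ to 3′ on the strand of the gene, 60 bases before and 30 bases from the annotated start of both paralogue pairs that the results turn on and of Rps26 and Rps23, which were called in opposite directions under each compound. Capitals mark a run that opens with C, continues with at least 6 further pyrimidines and begins within 10 bases of the annotated start; Rpl22 has a pair of annotated starts, and neither of them nor that of Rps23 has such a run.
Rpl22l1, chr3:28805448-28805537, plus strand: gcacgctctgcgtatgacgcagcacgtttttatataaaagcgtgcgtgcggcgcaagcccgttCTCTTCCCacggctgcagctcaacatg
Rpl22 upstream start, chr4:152324376-152324465, plus strand: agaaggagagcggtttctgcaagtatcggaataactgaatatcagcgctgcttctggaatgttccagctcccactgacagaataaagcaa
Rpl22 downstream start, chr4:152325666-152325755, plus strand: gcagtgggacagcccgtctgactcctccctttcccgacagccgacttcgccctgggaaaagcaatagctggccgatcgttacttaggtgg
Rpl39l, chr16:10170168-10170257, plus strand: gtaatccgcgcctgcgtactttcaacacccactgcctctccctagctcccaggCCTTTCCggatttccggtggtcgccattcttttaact
Rpl39, chrX:37085193-37085282, minus strand: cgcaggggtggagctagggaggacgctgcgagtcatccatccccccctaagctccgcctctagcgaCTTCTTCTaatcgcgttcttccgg
Rps26, chr10:128626477-128626566, minus strand: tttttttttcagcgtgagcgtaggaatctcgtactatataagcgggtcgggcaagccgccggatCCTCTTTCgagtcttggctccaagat
Rps23, chr13:90923062-90923151, plus strand: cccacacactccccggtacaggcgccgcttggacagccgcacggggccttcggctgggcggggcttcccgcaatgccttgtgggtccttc

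Such a run was present in 31 of 63 ribosomal protein genes (49.2%) and in 14.1% of the 27025 genes whose promoters were kept. A stricter form, with C at the annotated start itself followed by 4 pyrimidines, was found in 14 of the 63 genes (22.2%) and in 3.01% of all genes. Over the 300 bases of each promoter and on both strands, CCGGAAG, the core recognised by the ETS factor GABPA, was present in 26 of 63 genes (41.3%) and in 9.93% of all genes. CTTTCC, which can lie within a pyrimidine run, was present in 32 of 63 (50.8%) and in 29.3% of all genes, and the TATA box TATAAA in 8 of 63 (12.7%) and in 15.7% of all genes. Rpl22l1, Rpl39, Rpl39l and Rps26 each carry a run of 7 or 8 pyrimidines near the start, whereas their directions across the groups, given further on, differ. A motif match is a description of the letters only.

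The deposited abundance unit for comparing genes with each other is FPKM, which scales the expected count by a transcript length and library total. The FPKM of short genes exceed what their deposited length and library total alone give. Levels of short genes, Rpl41 among them, therefore stand higher relative to long genes than by counts per deposited length. Mean FPKM over the 12 libraries had a median of 549 for the ribosomal protein genes and 4.67 for all listed genes, and 63 of the 84 stood among the 200 genes with the highest FPKM. The highest were Rpl41, the smallest ribosomal protein, at 1378, Rps2 at 1351, Rps23 at 1113, Rpl23a at 1100.2 and Rpl12 at 1086. The lowest were Rpl3l, the striated muscle paralogue of Rpl3, at 0.0225, Rpl6l at 0.257, Rpl39l at 5.73, Rpl32l at 14.5 and Rpl31 at 14.7. Rpl3l was listed in 3 libraries with 1 count in each, and Rpl6l summed to 27.4 counts over 10 libraries. These 2 genes did not pass the filter on low counts and were not tested, and the paralogues Rpl10l and Rps4l are not among the listed genes. In total 72 genes lay above 100 FPKM and 12 at or below it.

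Expected counts are estimates that need not be whole, and a fraction in a gene's count shows that reads were shared with transcripts outside that gene. Of the 997 values of ribosomal protein genes, 505 (50.7%) were whole numbers to the 2 decimals given, against 91.4% of all values in the lists. Whole counts were found in every listing library for 29 genes and in none for 24, and 42.2 to 58.5% of the genes had one in a given library. The lowest FPKM values among genes known to be universal fell in this fractional class: Rpl10 at 32.3, Rpl10a at 20.2, Rpl15 at 29.3 and Rpl31 at 14.7. Low levels of these 4 genes are therefore uncertain, and reads given to copies cannot be separated from their own. Rpl10, which joins the large subunit late in its assembly, also had the widest replicate spread, with a coefficient of variation of 37.8% where the median was 6.17% for the 82 tested genes and 6.46% for all tested genes. Named pseudogenes took few reads, with 4026 counts over all libraries for Rps15a-ps5 and at most 97.7 for each of the other 7 listed. Rps15a and Rps20 had long deposited transcripts of 5160 and 3446 nucleotides and FPKM of 46.0 and 69.5.

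**Figure D1:**
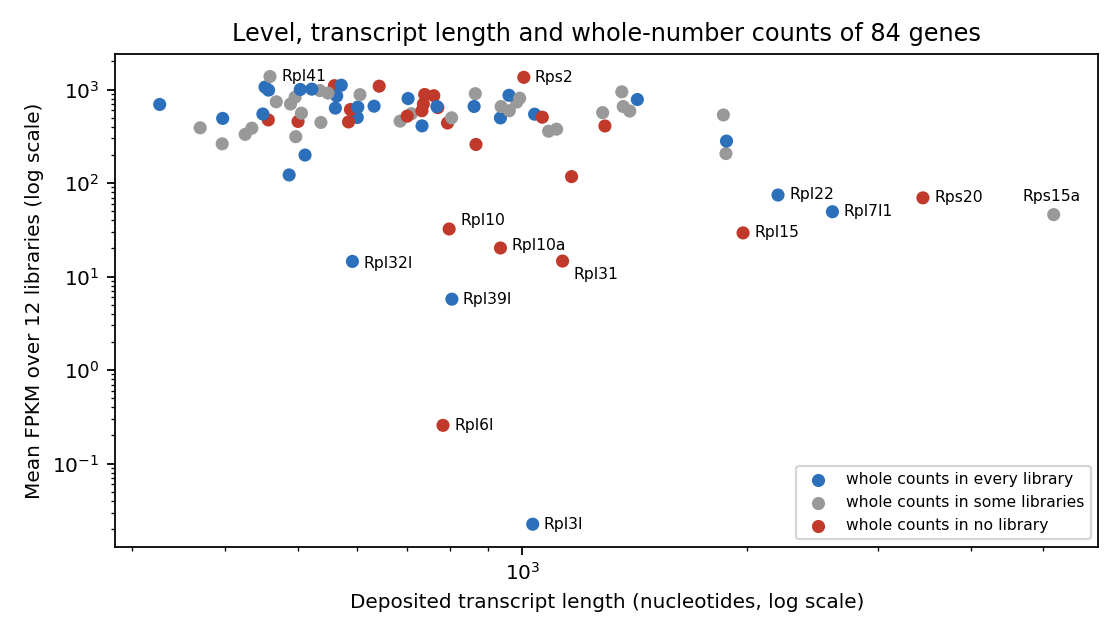
Mean FPKM over 12 libraries (log scale) against deposited transcript length in nucleotides (log scale) for the 84 genes, coloured by whether their expected counts were whole in every listing library, in some or in none. Most genes lie above 100 FPKM; Rpl10, Rpl10a, Rpl15 and Rpl31, with no whole count, lie between 14.7 and 32.3.

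Library totals ranged from 9405112 to 22390882 expected counts. The ribosomal protein genes held 3.11, 3.07 and 3.04% of the counts of wild-type vehicle replicates 1 to 3, and 2.99, 2.95 and 2.94% of those labelled Irg1 knockout. Their shares were 2.99, 2.68 and 2.69% after 4-OI and 2.75, 2.86 and 2.91% after hemin. All 3 vehicle libraries of wild-type cells were above all 9 others, every knockout library was above every hemin library, and the 4-OI libraries overlapped with the knockout and hemin groups. The mean share was 3.07% ± 0.04 for wild-type vehicle, 2.96% ± 0.02 for knockout, 2.79% ± 0.18 for 4-OI and 2.84% ± 0.09 for hemin (SD, n = 3). As a share of summed FPKM the means were 10.1% ± 0.02, 10.0% ± 0.08, 8.83% ± 0.46 and 9.15% ± 0.24 in the same order, and there the knockout libraries (9.95 to 10.1%) overlapped with wild-type vehicle (10.06 to 10.1%). The 4-OI and hemin libraries, at 8.56 to 9.36% and 8.88 to 9.36%, lay below both vehicle groups on the FPKM scale. In bulk RNA, fewer cells of a type and less RNA per cell cannot be told apart.

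**Figure D2:**
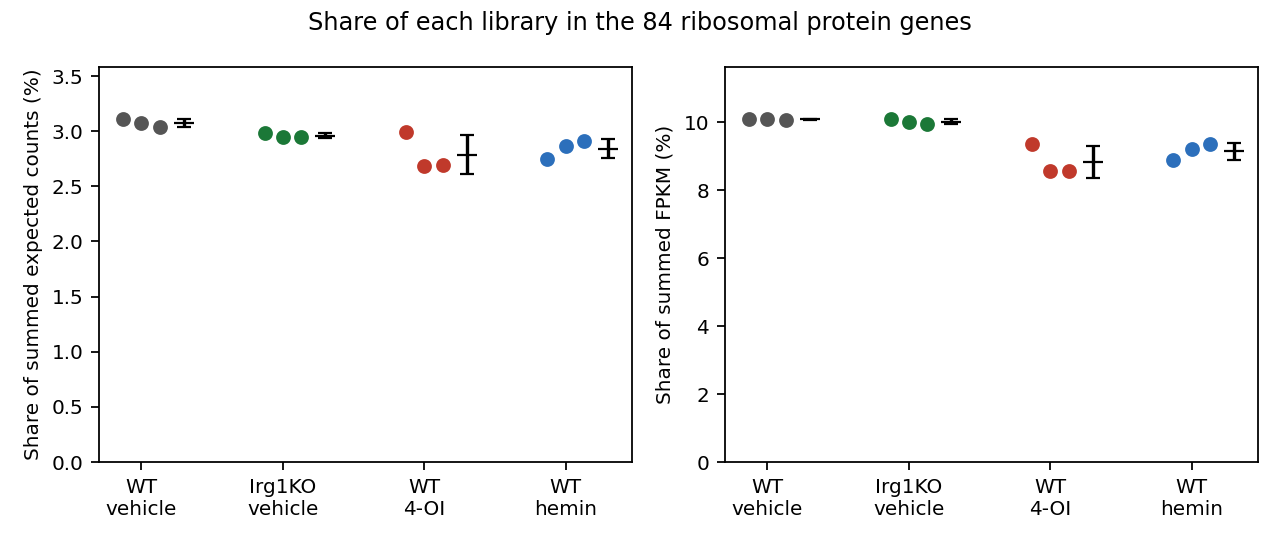
Share of each library in the 84 genes, as percent of summed expected counts (left) and of summed FPKM (right). Points are libraries 1 to 3 of each group, and bars are mean ± SD, n = 3; 4-OI replicate 1 stands above the other 4-OI libraries on both scales, at 2.99% of counts and 9.36% of FPKM.

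These shares are relative to the library total, and the scaling between libraries decides how they translate into gene-level changes. The tests used TMM factors, which lay at 0.944 to 0.950 in the 4-OI libraries and at 1.033 to 1.050 in wild-type vehicle, and which moved by at most 0.001 when the ribosomal protein genes were left out. After TMM scaling the median ribosomal protein gene differed from the wild-type vehicle mean by 0.10, -0.08 and -0.07 log2 in 4-OI replicates 1, 2 and 3, and by -0.12, -0.05 and 0.003 in the hemin libraries. The 3 knockout libraries lay between -0.01 and -0.003. In 4-OI replicate 1, 76 of 82 genes stood above the mean of their own group, and that library is left out in turn in the values given beside the 4-OI results.

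**Figure D3:**
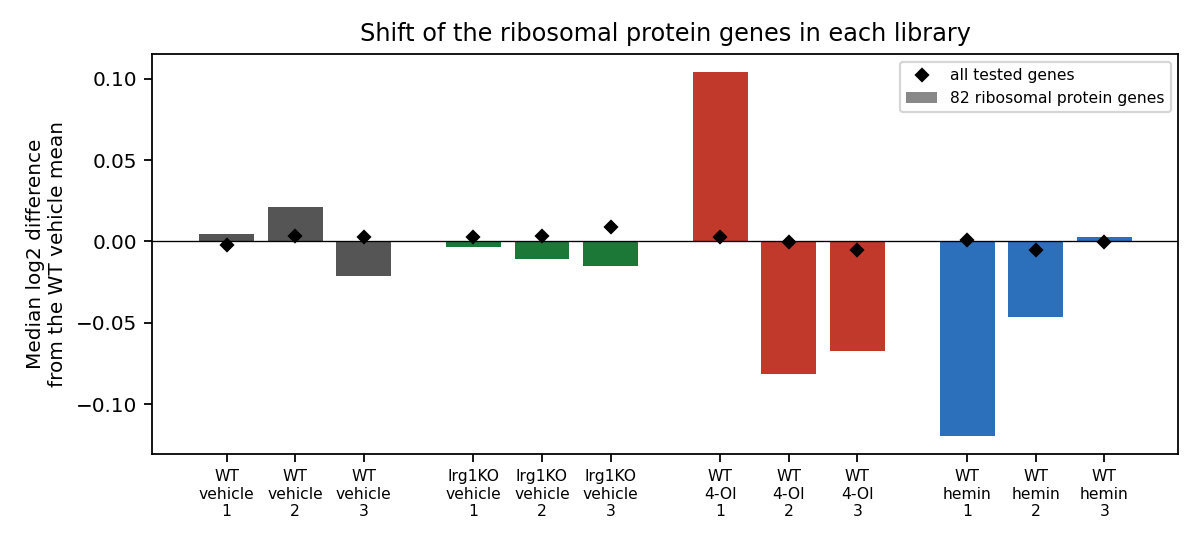
Median log2 difference of the 82 tested genes from the wild-type vehicle mean, one bar per library, from TMM-normalised counts; diamonds show the median of all tested genes, which stays within 0.01 of 0. 4-OI replicate 1 stands at 0.10 and the other 4-OI libraries at -0.08 and -0.07.

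Levels of single genes below are TMM-normalised CPM (counts scaled to a common library size). The summed levels of cell-type markers, given further on, are CPM from library totals alone, without TMM factors. A gene is called changed at a Benjamini-Hochberg adjusted p under 0.05 from the edgeR quasi-likelihood test over all 12148 tested genes. Of the 82 tested ribosomal protein genes, 22 were called in at least 1 of the 3 comparisons with wild-type vehicle, against 68.7% of all tested genes, and 60 in none. These comparisons share the same 3 vehicle libraries. Only 3 genes had a log2 difference beyond 0.5 in either direction in any comparison: Rpl39l, Rpl22l1 and Rpl10, of which Rpl10 was not called. Rpl10 was at 19.5, 19.7 and 11.5 CPM in wild-type vehicle and at 17.1, 23.3 and 37.1 CPM with hemin, overlapping groups with a log2 difference of 0.60 (SE 0.50, adjusted p = 0.503 by edgeR).

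**Figure D4:**
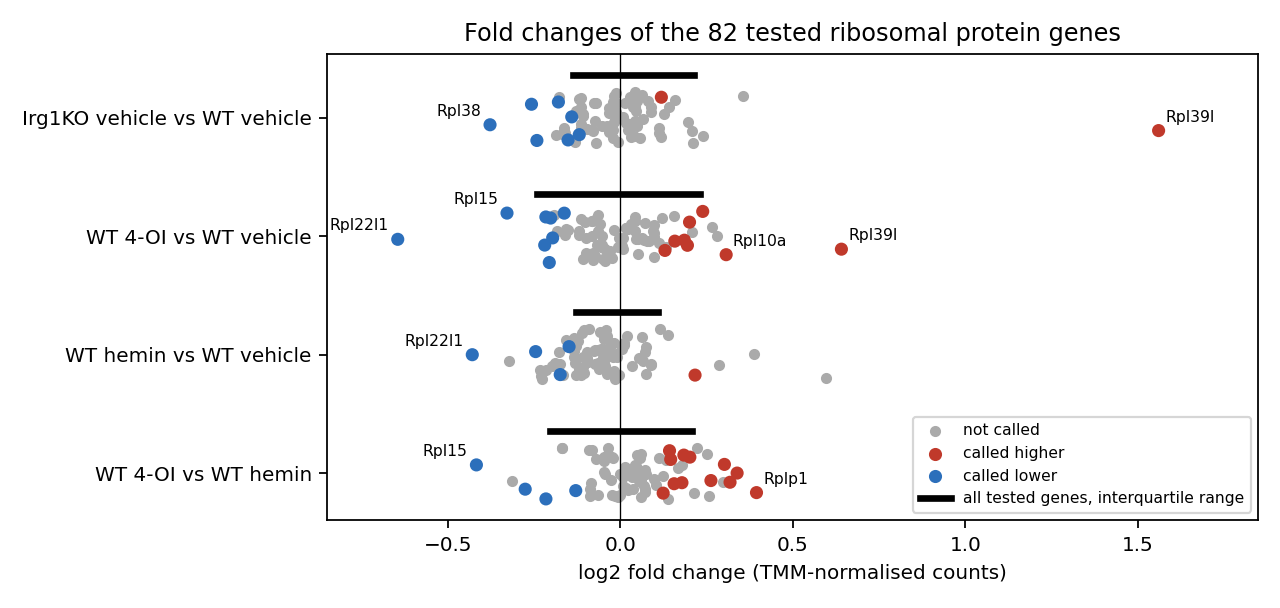
log2 fold change of each of the 82 tested genes in 4 comparisons, from TMM-normalised counts; red and blue points are called higher and lower, grey points are not called, and black bars span the interquartile range of all tested genes. Most points lie within 0.2 of 0, and Rpl39l (1.56 in the knockout) and Rpl22l1 (-0.65 with 4-OI) stand farthest out among the called genes.

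The 4-OI comparison asks how the macrophages' ribosomal protein mRNAs stood after 4-OI. Rpl22l1 fell by 0.65 on the log2 scale and Rpl39l rose by 0.64, while most genes for the core ribosomal proteins lay near 0. Of 82 genes, 8 were called higher, against 25.4% of all tested genes, and 8 were called lower, against 25.0% of all. The median log2 difference was -0.01 for the ribosomal protein genes and -0.003 for all genes.

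Rpl22l1 was at 53.8, 47.2 and 48.6 CPM in wild-type vehicle, at 36.5, 28.1 and 31.1 CPM with 4-OI and at 35.4, 39.8 and 35.6 CPM with hemin. It was at 49.2, 51.0 and 46.8 CPM in the libraries labelled Irg1 knockout. All 6 libraries given a compound lay below all 6 libraries given vehicle. The 4-OI decrease was -0.65 (SE 0.08, adjusted p = 1.23e-08 by edgeR) and the hemin decrease -0.43 (SE 0.08, adjusted p = 8.05e-05), and both were called under every alternative run, between -0.80 and -0.55 for 4-OI and between -0.49 and -0.37 for hemin. Rpl22l1 was lower with 4-OI than with hemin by -0.22 (SE 0.08, adjusted p = 0.0352), with overlapping libraries, and that call was lost in at least 1 alternative (highest adjusted p = 0.311). Its counts were whole in every library.

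Rpl22, the paralogue whose protein represses Rpl22l1 in mice, was at 168, 154 and 150.0 CPM in wild-type vehicle and at 169, 149 and 158 CPM with 4-OI. It was at 145, 140 and 167 CPM with hemin and at 163, 149 and 166 CPM in the knockout libraries. All 4 groups overlapped, with log2 differences from vehicle of 0.01 with 4-OI, -0.06 with hemin and 0.02 in the knockout (SE 0.06 in each, adjusted p = 0.936, 0.567 and 0.871 by edgeR). In FPKM, Rpl22 was at 78.0 ± 4.8 and Rpl22l1 at 149 ± 8.3 in wild-type vehicle (SD, n = 3). With 4-OI the values were 71.1 ± 4.4 and 85.9 ± 10.9. The deposited transcripts have 2203 and 487 nucleotides. The FPKM of the shorter Rpl22l1 thus stand higher against Rpl22 than counts per deposited length do.

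Among the other genes called lower with 4-OI, Rpl15, a large subunit core protein, was at 60.7, 55.2 and 53.0 CPM in wild-type vehicle and at 50.5, 40.4 and 44.0 CPM with 4-OI. The groups did not overlap, the log2 difference was -0.33 (SE 0.07, adjusted p = 0.000345 by edgeR), and the call held under every alternative. Rps18, Rps27l and Rpl3 were lower by -0.22, -0.22 and -0.20, also under every alternative run. Rpl3, whose protein reaches the peptidyl transferase centre, was at 855, 906 and 853 CPM in vehicle and at 822, 723 and 736 CPM with 4-OI, the highest again in replicate 1. Rps23, a protein of the decoding centre, was lower by -0.20 and lost the call when 1 library was left out (highest adjusted p = 0.0796). Rps3a1 (-0.21) and Rps7 (-0.16) had overlapping groups.

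The genes called higher with 4-OI included Rpl39l (0.64), Rpl10a (0.31), Rpl29 (0.24), Rps26 (0.20), Rpl19 (0.19), Rplp0 (0.19) and Rpsa (0.13). Rpl39l was at 2.68, 2.16 and 1.84 CPM in wild-type vehicle and at 3.84, 3.22 and 3.54 CPM with 4-OI, without overlap (0.64, SE 0.20, adjusted p = 0.00883 by edgeR), and it stayed called under every alternative. Rplp0, the base of the stalk that recruits translation GTPases, was at 1096, 1133 and 1064 CPM in wild-type vehicle and at 1305, 1200.4 and 1239 CPM with 4-OI, also without overlap. Those named here other than Rpl39l lost their calls when FPKM were tested in place of TMM-scaled counts.

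The balance of higher and lower calls depended on that scaling, while the median lay below 0 on the 3 scales given here. With limma-trend on log2(FPKM + 1), 1 ribosomal protein gene was called higher with 4-OI, against 14.3% of all tested genes, and 35 were called lower, against 37.9% of all. On that scale the median was -0.16 for the ribosomal protein genes and -0.11 for all genes, and with library totals alone the 2 medians were -0.15 and -0.14, with 1 gene called higher and 32 lower; upper-quartile factors gave 6 higher and 10 lower. Relative to the median of all genes the ribosomal protein genes thus lay from -0.05 to -0.01 with 4-OI on the 3 scales. Of the genes called, 9 were shared by both tests, which is 56.3% of the 16 from counts and 25.0% of the 36 from FPKM. Leaving out 4-OI replicate 1 gave 5 genes called higher and 21 lower from counts, with a median of -0.08. Over all fits that left out 1 library, 5 to 11 genes were called higher and 5 to 21 lower. The median in those fits ran from -0.08 to 0.04, so its sign depended on single libraries. Summed neutrophil markers were at 88.0 to 97.5 CPM in wild-type vehicle and 320 to 341 with 4-OI. Summed endothelial markers were at 35.7 to 40.5 CPM in vehicle and 8.12 to 9.42 with 4-OI. Of 5 tested neutrophil markers, 2 were called higher (25.4% of all tested genes) and 0 lower, and 1 lay below 0. Of 4 tested endothelial markers, 2 were called lower (25.0% of all tested genes) and 0 higher, and 2 lay above 0. Any part of these cell types in the 4-OI differences was not tested.

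**Figure D5:**
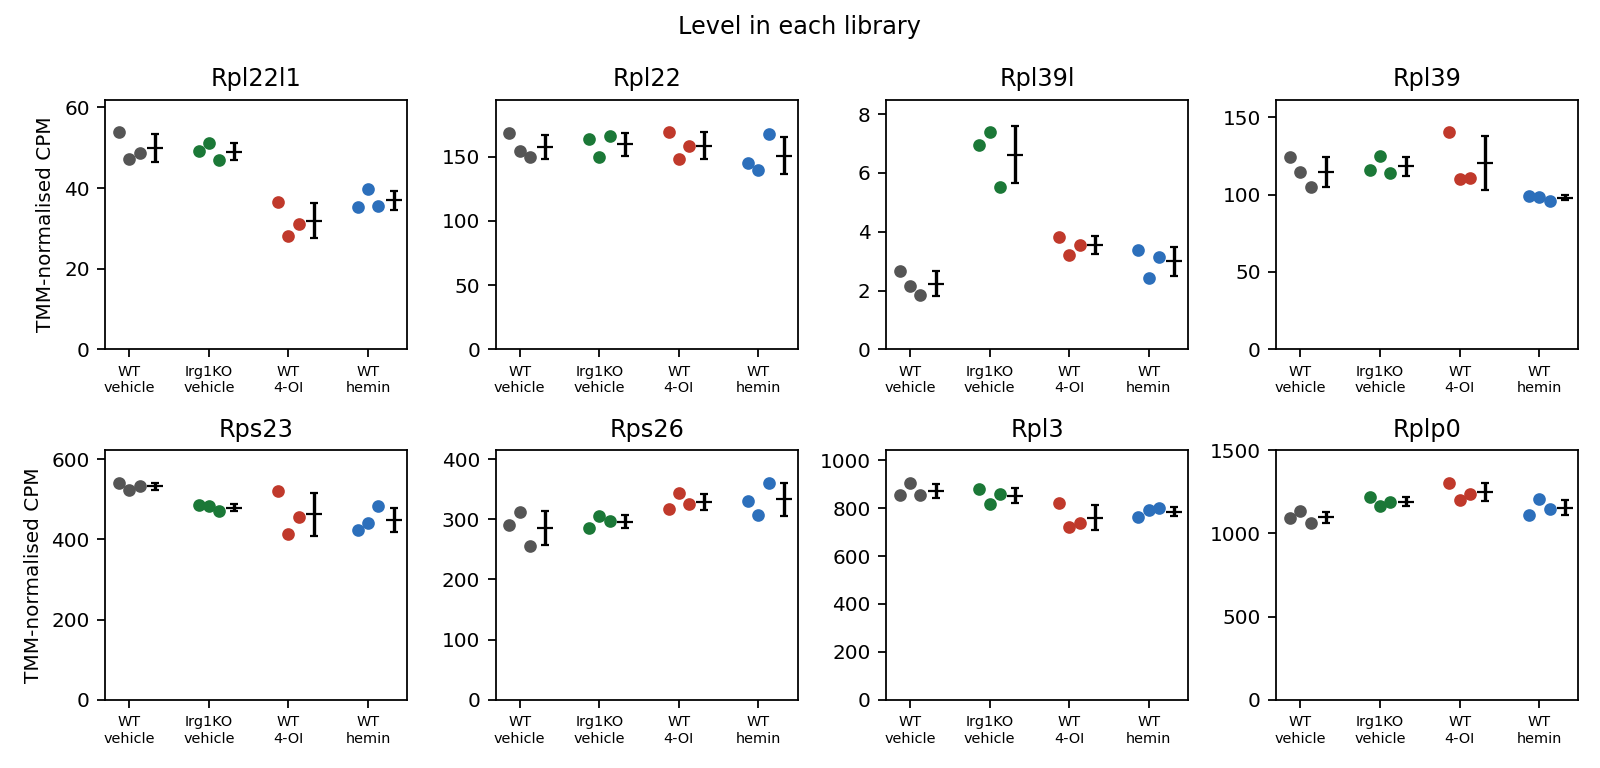
TMM-normalised CPM of 8 ribosomal protein genes in each library, with axes from 0; points are replicates 1 to 3 and bars are mean ± SD, n = 3. Rpl22l1 is lower in all 4-OI and hemin libraries than in any vehicle library while Rpl22 overlaps between groups, and Rpl39l is highest in the 3 knockout libraries (5.53 to 7.38 CPM).

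In hemin-treated cells, Rpl22l1 (-0.43), Rps23 (-0.25), Rpl34 (-0.17) and Rpl3 (-0.15) were lower and Rps26 (0.22) was higher than in vehicle. This is 4 of 82 genes called lower, against 7.74% of all tested genes, and 1 called higher, against 9.48% of all. The median was -0.06 for the ribosomal protein genes and -0.01 for all genes. A value below 0 was found in 63 of the 82 ribosomal protein genes and in 6219 of all 12148 tested genes. Rps23 was at 541, 524 and 533 CPM in wild-type vehicle and at 423, 441 and 482 CPM with hemin. Those groups did not overlap (-0.25, SE 0.06, adjusted p = 0.00427 by edgeR), and the call held under every alternative. Rps26, which lines the mRNA exit channel of the small subunit, was at 290.2, 312 and 256 CPM in vehicle and at 331, 307 and 361 CPM with hemin. Those groups overlapped (0.22, SE 0.06, adjusted p = 0.0153), and the call was lost in at least 1 alternative (highest adjusted p = 0.113). The calls of Rpl34 and Rpl3 with hemin were also lost when 1 library was left out (highest adjusted p = 0.145 and 0.149): Rpl34 without vehicle replicate 3 or hemin replicate 2, and Rpl3 without vehicle replicate 2 or any 1 hemin library. With log2(FPKM + 1), 0 genes were called higher with hemin, against 5.11% of all, and 10 lower, against 11.7% of all, with medians of -0.11 for the ribosomal protein genes and -0.05 for all genes; at an unadjusted p under 0.05, limma had 3 higher and 27 lower. Relative to the median of all genes, the ribosomal protein genes lay between -0.06 and -0.05 with hemin on the count, library-total and FPKM scales. Leaving out hemin replicate 1, which had the lowest median, gave 3 genes called higher and 5 lower from counts, and library totals alone gave 0 higher and 18 lower by edgeR. Summed endothelial markers were at 16.3 to 17.8 CPM with hemin, below vehicle. Of 4 tested, 1 was called lower (7.74% of all tested genes) and 0 higher, and 1 lay above 0. Any part of endothelial cells in the hemin differences was not tested.

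In the libraries labelled Irg1 knockout, Rpl39l stood nearly 3 times higher than in wild-type vehicle, and the remaining calls were all below 0.4 in size on the log2 scale. In all, 2 of 82 genes were called higher, against 23.5% of all tested genes, and 7 lower, against 16.3% of all. The median was -0.01 for the ribosomal protein genes and -0.0003 for all genes. Acod1, the targeted gene, did not separate these libraries from wild type at gene level (20.5 ± 6.4 against 27.7 ± 2.7 CPM, log2 difference -0.48, SE 0.26, adjusted p = 0.194 by edgeR).

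Rpl39l was at 6.94, 7.38 and 5.53 CPM in the 3 knockout libraries, above every wild-type library. The log2 difference from wild-type vehicle was 1.56 (SE 0.18, adjusted p = 2.88e-09 by edgeR), a 2.95-fold difference, and ranged from 1.32 to 1.70 over the alternatives. Its level remained low, at 10.1 ± 1.4 FPKM against 3.44 ± 0.62 in wild-type vehicle (SD, n = 3), on 651 counts over the 12 libraries. Rpl39, the paralogue that lines the exit tunnel of the ribosome in most tissues, was at 116, 125 and 114 CPM in the knockout and at 124, 115 and 105 CPM in wild-type vehicle, with overlap (0.04, SE 0.08, adjusted p = 0.709), and per length at 420 ± 14 and 405 ± 23 FPKM. The knockout libraries also carried more RNA of fibroblast and stromal markers, of which 9 of 9 tested were called higher and the 11 summed to 11970 to 13470 CPM against 2064 to 2547 in wild-type vehicle. The part of those cells in the Rpl39l difference was not tested. Summed neutrophil markers were at 42.4 to 46.3 CPM in the knockout and 94.6 to 104.5 with hemin. Endothelial markers summed to 30.1 to 33.6 in the knockout, and macrophage markers to 24060 to 26910 in all groups. In the knockout, 1 of 5 tested neutrophil markers was called higher and 3 lower, and 0 and 1 of 4 endothelial markers. Of 8 macrophage markers, 1 was called higher and 1 lower in the knockout, 2 and 2 with 4-OI, and 3 and 2 with hemin. The lowest macrophage marker value was -1.63 with 4-OI and -0.58 with hemin. All tested genes had 23.5% called higher and 16.3% lower in the knockout, 25.4% and 25.0% with 4-OI, and 9.48% and 7.74% with hemin. Erythroid and lymphocyte markers summed to at most 0.294 CPM in any library.

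Rps6, the small subunit protein phosphorylated by the S6 kinases, was at 774, 808 and 787 CPM in wild-type vehicle and at 681, 707 and 704 CPM in the knockout. The groups did not overlap (-0.18, SE 0.04, adjusted p = 0.00106 by edgeR), and the call held under every alternative. The other lower calls were Rpl38 (-0.38), the gene mutated in Tail-short mice, Rpl10a (-0.26), Rpl37 (-0.24), Rps23 (-0.15), Rpl14 (-0.14) and Rpl7a (-0.12). Each of these 6 had an adjusted p between 0.0147 and 0.0477 and lost its call when at least 1 library was left out, as did Rplp0, called higher at 0.12. With log2(FPKM + 1), 2 genes were called higher in the knockout, against 20.6% of all tested genes, and 5 lower, against 17.8% of all, while RLE factors gave 1 higher and 12 lower from counts and library totals alone 1 and 13.

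The direct comparison of 4-OI with hemin tests the difference between the compounds, at their unequal hours. From counts, 12 of 82 ribosomal protein genes were called higher with 4-OI, against 20.6% of all tested genes, and 4 lower, against 21.7% of all. The small acidic stalk proteins were among the higher ones. Rplp2 was at 188, 149.5 and 145 CPM with 4-OI and at 127, 129 and 126 CPM with hemin, without overlap (0.34, SE 0.09, adjusted p = 0.00965 by edgeR), and this call held under every alternative. Rplp1 was at 323, 243 and 245 CPM with 4-OI and at 199.6, 224 and 194 CPM with hemin, also without overlap (0.39, SE 0.12, adjusted p = 0.0225), but not in every alternative (highest adjusted p = 0.0789). With all libraries neither gene was called against vehicle under 4-OI or hemin. Some alternatives called them, among them Rplp1 higher with 4-OI without 4-OI replicate 2 or 3 (adjusted p = 0.0415 without replicate 2), and Rplp2 lower with hemin without vehicle replicate 2 (adjusted p = 0.0360).

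Rpl10a (0.32), Rpl39 (0.30) and Rps12 (0.26) were also called higher with 4-OI than with hemin, and Rpl19, Rpl13a, Rps2, Rpl9 and Rpl29 lay between 0.12 and 0.18. Rpl15 (-0.42), Rpl31 (-0.28), Rpl22l1 (-0.22) and Rpl7l1 (-0.13) were called lower. Among the genes of this paragraph, Rpl39 and Rps12 held their calls whenever 1 library was left out but lost them in another alternative (highest adjusted p = 0.0755 and 0.0939). The calls of Rpl10a, Rpl19, Rpl13a, Rps2, Rpl9, Rpl29, Rpl31, Rpl22l1 and Rpl7l1 were each lost when at least 1 library was left out. Rpl15 was at 56.2, 59.0 and 64.2 CPM with hemin, above all 4-OI libraries, and its difference (SE 0.08, adjusted p = 2.62e-05 by edgeR) held under every alternative. The balance of calls again depended on the scale. With log2(FPKM + 1), 2 genes were called higher with 4-OI than with hemin, against 14.2% of all tested genes, and 10 lower, against 28.7% of all, and with library totals alone 3 were called higher and 12 lower, whereas RLE factors gave 14 higher and 1 lower. Without 4-OI replicate 1 the counts gave 5 higher and 6 lower, and without hemin replicate 1 they gave 6 higher and 6 lower. Over all fits that left out 1 library, 5 to 16 were called higher and 1 to 6 lower.

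Several members with distinct roles were called in no comparison with vehicle when all libraries were used. Rpl5 and Rpl11, which with 5S rRNA form the particle that can inhibit Mdm2, had log2 differences of -0.19 and -0.17 in the knockout and between -0.09 and -0.04 with the compounds. These calls depended on single libraries and on the tool. Without vehicle replicate 3, Rpl5 was called lower in the knockout (-0.31, adjusted p = 3.13e-05 by edgeR) and with 4-OI (-0.16, adjusted p = 0.0193), and without hemin replicate 3, Rpl11 was called lower with hemin (-0.22, adjusted p = 0.0471). Rpl5 was also called lower in the knockout by DESeq2 and without the filter on low counts. Rpl11 too was called lower in the knockout without that filter (-0.19, adjusted p = 0.000679 by edgeR). It was also called lower there in the fit of only the 2 groups compared (-0.17, adjusted p = 0.0466 by edgeR). Rps27a, translated as a fusion to ubiquitin, had differences between -0.11 and 0.05 (SE 0.19) and no whole count; without 4-OI replicate 1 it was called lower with 4-OI (-0.31, adjusted p = 0.0466). Among further parent genes of paralogues, Rpl7 lay between -0.11 and -0.08, Rps27 between -0.16 and -0.01 and Rps4x between 0.05 and 0.12. The paralogue Rpl7l1 lay between -0.11 and 0.07 against vehicle. In the knockout, Rpl7 was called lower without knockout replicate 3 (-0.16) and Rpl7l1 without vehicle replicate 1 or 3 (-0.14 in each), both also with RLE factors, library totals alone or no filter, and with hemin Rps27 was called lower without vehicle replicate 3 (-0.24). Rps27l, the paralogue of Rps27, was called lower with 4-OI, at 70.3, 64.9 and 65.4 CPM against 75.4, 79.7 and 77.7 in vehicle, and its value with hemin was -0.13 (SE 0.06, adjusted p = 0.155 by edgeR), or -0.21 (adjusted p = 0.0217) without hemin replicate 1. The direct difference between 4-OI and hemin was not called (-0.08, SE 0.07, adjusted p = 0.335).

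Lists of genes that work with the ribosomal proteins give the surrounding pathway. Their counts stand beside the shares of all tested genes already given: 23.5% higher and 16.3% lower in the knockout, 25.4% and 25.0% with 4-OI, and 9.48% and 7.74% with hemin. Of 21 other translation genes with TOP mRNAs, 3 were called higher and 3 lower in the knockout, 3 and 2 with 4-OI, and 0 and 1 with hemin. The one with hemin was the elongation factor subunit Eef1b2 (-0.15), which was higher in the knockout (0.26), and with 4-OI Eef2, the translocation factor, was higher (0.16) and Hnrnpa1 lower (-0.34). Of 18 genes of mTORC1 and TOP mRNA control, 5 were called higher in the knockout, 6 with 4-OI and 3 with hemin (27.8, 33.3 and 16.7% of the list), and 0 were called lower in each by edgeR. All tested genes had 23.5, 25.4 and 9.48% called higher in the same order. On a list of 18 genes, such differences rest on few genes. Eif4ebp1, a translation repressor that mTORC1 inactivates, was higher with 4-OI (0.65, SE 0.07) and with hemin (0.26, SE 0.07). Larp1, which binds TOP mRNAs, was higher with 4-OI (0.18, SE 0.05) and with hemin (0.24, SE 0.05). In the knockout Ddit4 (1.88) and Sesn2 (0.50), stress-induced inhibitors of mTORC1, were higher.

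Of 7 tested genes of Myc and its partners, 1 was called higher and 2 lower in the knockout, 4 and 2 with 4-OI, and 1 and 0 with hemin. Myc itself, an activator of ribosome synthesis, was lower in the knockout (-0.27, SE 0.06) and higher with 4-OI (0.36, SE 0.05) and hemin (0.41, SE 0.05). Of 18 genes of RNA polymerase I and rRNA synthesis, 4 were called lower and 0 higher in the knockout, among them Fbl (-0.25) and Ncl (-0.17), against 3 higher and 2 lower with 4-OI and 2 higher and 0 lower with hemin. Of 15 chaperones and importers of ribosomal proteins, 2 were called higher and 3 lower in the knockout, 3 and 2 with 4-OI, and 0 in either direction with hemin by edgeR, where 4 had an unadjusted p under 0.05. Tsr2, known from yeast as the chaperone that delivers Rps26, was lower with 4-OI (-0.30, SE 0.09), where Rps26 RNA was higher. Of 13 ribosome quality control genes, 1 was called higher in the knockout and 0 lower, 5 and 1 with 4-OI, and 1 and 0 with hemin, with Zfp598, which marks collided ribosomes, higher with 4-OI (0.37, SE 0.07). Of 10 genes of initiation stress signalling, 1 was called higher in the knockout and 0 lower, 4 and 2 with 4-OI, and 1 and 1 with hemin; the interferon-induced kinase Eif2ak2 was lower with 4-OI (-0.68, SE 0.05) and hemin (-0.29, SE 0.05). A list of 31 mitochondrial ribosomal protein genes had 8 called lower and 0 higher in the knockout (25.8% lower against 16.3% of all tested genes, with a median of -0.12 against -0.0003 for all genes), 7 lower and 2 higher with 4-OI, and 2 lower and 0 higher with hemin.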

How the data were processed

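RNA sequencing gave 1 deposited gene list for each of 12 libraries. The submitters' processing notes name the tools RSEM, Bowtie2, StringTie and HISAT2 and the builds GRCm39 and mm39; versions are not given in the sources used here. Expected counts were deposited as estimated reads or fragments per gene, per the file headers. FPKM were deposited too, per the file headers: expected counts per transcript length and library total. For short transcripts they exceed counts per deposited length and library total. A gene missing from a list was taken as 0.

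Expected counts were rounded and tested in R 4.3.3 with edgeR 4.0.16 (filterByExpr, TMM, quasi-likelihood F test with robust dispersion, all 12 libraries in 1 fit) and adjusted by Benjamini-Hochberg over 12148 genes. Each SE was obtained from the log2 fold change and F, as their ratio with F under a root. Library shifts used log2(CPM + 0.5). Alternatives were RLE, upper-quartile and no factors, TMM without the ribosomal protein genes, other filters, DESeq2 1.42.0, limma-trend (limma 3.58.1) on log2 FPKM plus 1 or 0.1, which understates changes of low genes, only the groups compared, a replicate block, adding named pseudogenes, and leaving out each library. Restricting to genes with whole counts was chosen after seeing the data.

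Library totals were 9405112 to 22390882 counts. The chi-square per degree of freedom between replicate pairs was 2.40 to 4.88, where 1 is sampling noise. Replicates thus differed by more than sampling noise, and depth alone does not set the precision. The members, gene lists and tests were chosen with earlier results of these data known. Named were Acod1, the stalk, 5S particle, ubiquitin fusion and paralogue genes, per comparison the 6 highest and 6 lowest called members of at least 5 CPM, the 5 highest and lowest by FPKM, members of at least 5 CPM with the fewest whole counts (23 tie at none; those with low FPKM or a role above were named), and up to 4 genes of each companion list by adjusted p; the remaining called members, Rps15a, Rps20, and the genes whose promoters are shown were chosen after their values were seen. Some called members are not reported here by name. Python 3.11.15, pandas 2.3.3 and matplotlib 3.10.9 were used.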

Additional observations from a re-analysis of the deposited data

How the results depend on the processing

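The number of ribosomal protein genes called stayed within 1.5 times its main value (9 in the knockout, 16 with 4-OI, 5 with hemin, 16 between 4-OI and hemin) under the alternatives not named here. With library totals alone it was 14 in the knockout, 33 with 4-OI and 18 with hemin. Without a filter on low counts it was 28, 28, 17 and, between 4-OI and hemin, 25. In fits of only the groups compared it was 19 in the knockout and 10 with hemin. DESeq2 called 9 with hemin. With limma-trend it was 36 with 4-OI at 1 added to FPKM and 37 at 0.1, and 10 with hemin at either. Restricted to genes with whole counts, 28 genes tested, it was 4, 6, 3 and 4. This is 14.3, 21.4, 10.7 and 14.3% of that shorter list, against 11.0, 19.5, 6.10 and 19.5% of all 82 tested genes. Leaving out 1 library gave 5 to 8 in the knockout (5 without knockout replicate 1 or 3), 15 to 26 with 4-OI (26 without 4-OI replicate 1), 4 to 8 with hemin (8 without hemin replicate 1) and 11 to 17 between the compounds. The share of summed FPKM was 10.0849% for wild-type vehicle, 10.0169% for knockout, 8.8313% for 4-OI and 9.1466% for hemin. The 4-OI difference of Rpsa turned from 0.13 to -0.0092 with library totals and to -0.0120 with either FPKM test (adjusted p from 0.00186 to 0.876 over its alternatives). A replicate block gave 9 calls with hemin; same-numbered libraries did not deviate together (correlations -0.08 to 0.07 over 18 pairs), so numbers were not taken to pair libraries. Calls under every alternative numbered 2 in the knockout, 6 with 4-OI, 2 with hemin and 2 between the compounds. Other than by construction, the cause of these differences was not tested. Depth limits Rpl3l and Rpl6l, which could not be tested, and shared reads limit the 24 genes with no whole count.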
